A study of Mus musculus with 9 samples.

Results

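The genes described here are those of the epidermal growth factor (EGF) family and its ERBB receptors that carry the symbols Areg, Btc, Hbegf, Tgfa, Egfr, Erbb2 and Erbb3 in a table of gene expression in mouse uterine luminal epithelium. They were chosen by symbol, with earlier results of these data known, and make up 4 ligands and 3 receptors, or 7 of the 15158 genes in the table. All 7 were among the 12347 genes tested, which reached 1 FPKM (fragments per kilobase, relative to library depth) in 3 or more libraries. The epithelium, which lines the uterine lumen and is the first tissue an implanting embryo meets, was collected by laser capture on pregnancy day 4 from females that had been kept to 8 weeks of age. The ePRBoe group (Wnt7acre/+PgrBLsL/+) carried an added allele for isoform B of the progesterone receptor, and the ePRAoe group (Wnt7acre/+PgrALsL/+) one for isoform A. The Wnt7acre group carried the cre recombinase alone and served as the control, so every group carried Wnt7acre, a cre under the control of Wnt7a, a gene of the uterine epithelium. Each of the 3 genotypes had 3 libraries, numbered as bioreplicates. The animals behind the numbers are not named, so the p-values below measure the spread between these samples, which may in part be technical. The series asks what the epithelial receptor isoforms do in embryo implantation.

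EGF family ligands are made as membrane proteins, and are shed by metalloproteases or act on a neighbouring cell. They bind ERBB receptors, which pair with one another and pass the signal to the ERK and PI3K kinases. Amphiregulin (Areg), betacellulin (Btc), heparin-binding EGF-like growth factor (Hbegf) and transforming growth factor alpha (Tgfa) all bind the EGF receptor (Egfr), and betacellulin and heparin-binding EGF also bind ERBB4. Erbb2 has no known ligand and serves as the partner of the other receptors. Erbb3 binds neuregulins and has little kinase activity of its own. In mouse uterus, amphiregulin is known as a progesterone-responsive gene of the luminal epithelium before implantation, and Hbegf as a gene that the epithelium makes around the blastocyst.

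The libraries came from 3 sequencing runs, as the run names in the labels show. All ePRBoe libraries were in the first run, together with ePRAoe replicate 2 and Wnt7acre replicate 3. The second run held ePRAoe replicate 3 and Wnt7acre replicate 2, and the third held ePRAoe replicate 1 and Wnt7acre replicate 1. Each library summed to between 272213 and 314010 FPKM, and total read counts were not used here. The targeted gene Pgr (progesterone receptor, both isoforms together) had 38.1, 38.3 and 45.9 FPKM in ePRBoe replicates 1, 2 and 3, and 41.7, 49.5 and 42.8 FPKM in ePRAoe, against 17.4, 3.82 and 6.62 FPKM in Wnt7acre. No ePRBoe or ePRAoe library overlapped with a Wnt7acre library, and Wnt7acre replicate 1 stood highest among the controls. The 11 epithelial markers (among them Epcam, Cdh1 and Krt8) were all present, and summed to 1870 to 2126 FPKM in ePRBoe, 1503 to 2194 in ePRAoe and 1835 to 2157 in Wnt7acre. Their mean on the log2(FPKM + 1) scale, in which each marker counts alike, was 6.85 to 7.18 in ePRBoe and 6.61 to 7.003 in ePRAoe, against 7.03 to 7.27 in Wnt7acre, so the ePRAoe and Wnt7acre libraries did not overlap. Among them, Wnt7a passed the test as lower in ePRAoe (-1.57, limma adjusted p = 0.0457). The 18 stromal markers were all above 0 in every library and moved with genotype. Their summed level was 464 to 620 FPKM in ePRBoe, 267 to 444 in ePRAoe and 108 to 143 in Wnt7acre. The 15 immune markers summed to 416 to 499 FPKM in ePRBoe, 138 to 178 in ePRAoe and 206 to 423 in Wnt7acre, with Cd3e at 0 in 1 library. The 8 gland markers summed to 238 to 300 FPKM in ePRBoe, 294 to 566 in ePRAoe and 77.5 to 282 in Wnt7acre, and Spink1, Cxcl15, Prss28, Prss29 and Ttr among them were at 0 in 1 or more libraries. Calb1 made up most of these sums (means 247, 388 and 154 FPKM in the same order). The mean of the gland markers on the log2 scale was 1.86 to 3.06, 1.26 to 1.72 and 1.77 to 2.51, so it was lower in ePRAoe than in Wnt7acre without overlap. Against Wnt7acre, 2 gland markers passed as higher in ePRAoe (Aldh1a1 and Calb1) and 1 as lower (Spink1). The 9 endothelial markers summed to 50.4 to 76.5 FPKM in ePRBoe, 16.4 to 34.3 in ePRAoe and 13.7 to 21.0 in Wnt7acre, and the 7 smooth muscle markers to 38.3 to 124, 16.8 to 31.5 and 11.7 to 21.5 FPKM in the same order. In such bulk captures, fewer cells of a type and less RNA per cell cannot be told apart, and the part of these other cells in the results below was not tested.

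In ePRAoe epithelium, 4 of the 7 genes passed the test against Wnt7acre (limma on log2(FPKM + 1) with a term for the run, Benjamini-Hochberg adjusted p under 0.05 over all 12347 genes). Areg rose, and Btc, Tgfa and Erbb3 fell. Among all genes tested, 16.2% passed in this comparison, 7.20% higher and 8.98% lower in ePRAoe (889 and 1109 genes, or 1015 and 596 with libraries scaled to the epithelial markers other than Wnt7a, a setting chosen after seeing the data, which left 3 of the 7 called, Areg, Erbb3 and Egfr). The libraries of the ePRAoe and Wnt7acre groups did not overlap for 6 of the 7 genes, all but Hbegf, against 28.9% of all genes tested, and 6 of the 7 had an unadjusted p under 0.05, against 31.9%. In ePRBoe epithelium, 0 of the 7 passed against Wnt7acre with limma, while 8.89% of all genes did, 3 of the 7 had an unadjusted p under 0.05 (25.8% of all genes), and the smallest adjusted p was 0.0648. The ePRBoe and Wnt7acre libraries did not overlap for 5 of the 7, against 39.8% of all genes tested. Between ePRBoe and ePRAoe, 0 of the 7 passed with limma, 1 had an unadjusted p under 0.05 and all 7 overlapped, while 0.324% of all genes tested passed, 18.7% had an unadjusted p under 0.05 and 22.6% did not overlap. Both overexpressing groups are set against the same 3 Wnt7acre libraries. All ePRBoe libraries share their run with only 1 control, so with the run term their differences have larger SEs. For Erbb3 the SE was 0.157 in ePRBoe and 0.128 in ePRAoe. The counts of 4 and 0 called therefore do not compare the isoforms. With no run term, 3 of the 7 passed in ePRBoe, against 14.5% of all genes. With 3 libraries against 3, an exact permutation test (two-sided) cannot go below p = 0.1, the value reached by every gene whose libraries did not overlap.

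**Figure D1:**
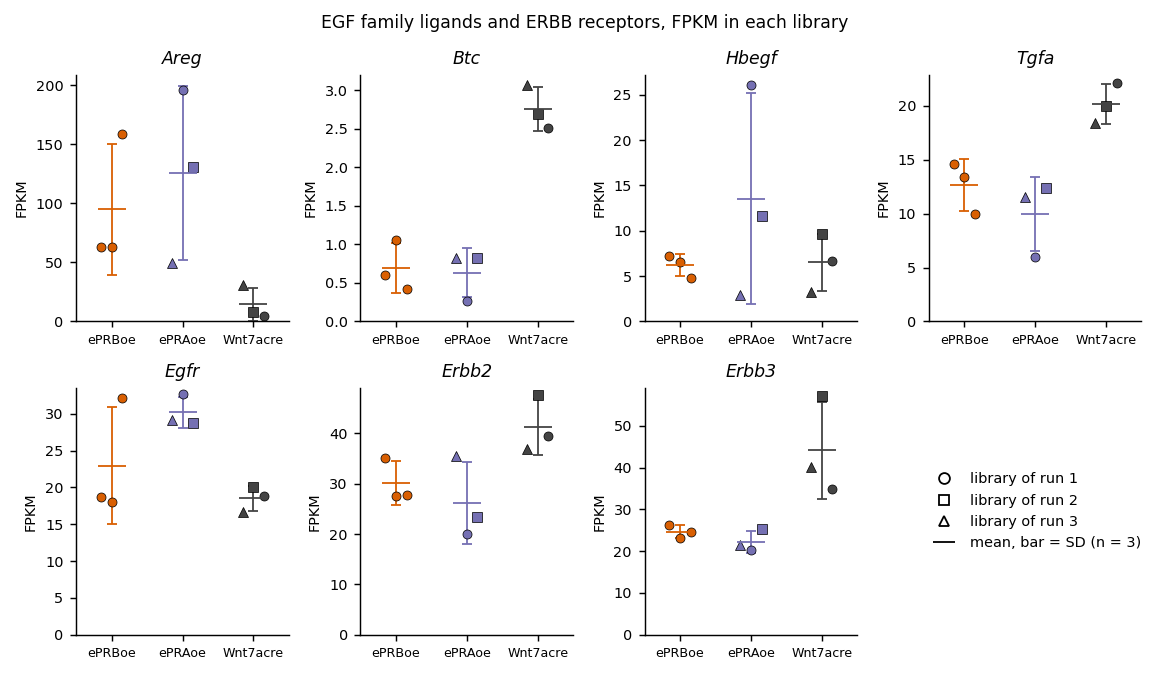
FPKM of each of the 7 genes in each library, by genotype (ePRBoe, ePRAoe, Wnt7acre), with the point shape for the sequencing run and with the mean and SD of 3 libraries. Areg lies at 49.1 FPKM or more in all ePRBoe and ePRAoe libraries and at 30.8 FPKM or less in all Wnt7acre libraries, while Btc, Tgfa and Erbb3 lie highest in Wnt7acre.

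Areg, amphiregulin, had the largest change of the 7. It had 63.4, 62.9 and 158.8 FPKM in ePRBoe replicates 1, 2 and 3, and 49.1, 196.3 and 131.3 FPKM in ePRAoe, against 30.8, 8.32 and 4.76 FPKM in Wnt7acre. All 6 overexpressing libraries were above all 3 controls, but the Wnt7acre libraries themselves spread over a wide range, and replicate 1, the one with the most Pgr, also had the most Areg. The level averaged 95.01 ± 55.2 FPKM in ePRBoe and 126 ± 73.7 in ePRAoe, against 14.6 ± 14.1 in Wnt7acre (SD, n = 3 each). In ePRAoe, Areg rose by 3.19 on the log2(FPKM + 1) scale (SE 0.75, 95% interval 1.44 to 4.95, limma adjusted p = 0.0282), or 9.15-fold. Within the runs, the ePRAoe library exceeded its Wnt7acre partner by 5.10, 3.83 and 0.66 in runs 1, 2 and 3, so the direction was shared by all 3 pairs and the size was not. Leaving out any of Wnt7acre replicates 2 and 3 and ePRAoe replicates 2 and 3 lost the call (limma adjusted p = 0.142, 0.144, 0.145 and 0.143 in that order), with a difference of 2.88 without replicate 2 of Wnt7acre or 3 of ePRAoe and of 2.24 without replicate 3 of Wnt7acre or 2 of ePRAoe. It held without Wnt7acre replicate 1 or ePRAoe replicate 1, the run 3 pair, where the difference was 4.46, and without any 1 of the ePRBoe libraries. With a term for the run, leaving out 1 library of a pair also takes the weight from its partner. In ePRBoe, the difference from Wnt7acre was 2.96 (SE 0.92, 95% interval 0.82 to 5.11, limma adjusted p = 0.0925). It was 1.06 without Wnt7acre replicate 3 (adjusted p = 0.678), the only control in the run of the ePRBoe libraries, and 3.60 without either run 3 library (0.0110 without that of Wnt7acre), and it passed in 2 of the 9 fits with a library left out and under 3 of 12 other settings. The ePRBoe value differed from the ePRAoe value by -0.23 (95% interval -2.38 to 1.92, limma adjusted p = 0.911), or by 1.67 without ePRAoe replicate 2. The summed stromal markers were 464, 564 and 620 FPKM in ePRBoe replicates 1, 2 and 3, and 267, 283 and 444 FPKM in ePRAoe, against 108, 129 and 143 FPKM in Wnt7acre, and their part in the Areg values was not tested.

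Areg lies on chromosome 5 of mm10 at 91139599 to 91148432, on the forward strand, next to 3 other EGF family genes. The order along the chromosome is Epgn (epigen), Ereg (epiregulin), Areg and Btc. They span 375.5 kb from 91027464 to 91402994 and are the only protein-coding genes that GENCODE M21 places within it. Btc is on the reverse strand at 91357261 to 91402994, at the far end of the group. The 250 bases before the start sites of Areg and Btc are shown because these neighbours differed in opposite directions in ePRAoe. The Areg bases are chr5:91139349-91139598, forward strand, and the Btc bases are chr5:91402995-91403244, reverse strand, both from RefSeq on GRCm38.p6, the assembly that mm10 names. Capitals mark the letters of a cAMP response element, TGACGTCA, and of a TATA box, TATAAA.
Areg: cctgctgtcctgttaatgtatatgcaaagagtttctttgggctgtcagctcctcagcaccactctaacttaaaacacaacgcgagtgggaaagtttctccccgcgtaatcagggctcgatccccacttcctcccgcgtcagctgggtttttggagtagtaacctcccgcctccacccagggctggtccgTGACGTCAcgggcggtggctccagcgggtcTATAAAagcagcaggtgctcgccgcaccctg
Btc: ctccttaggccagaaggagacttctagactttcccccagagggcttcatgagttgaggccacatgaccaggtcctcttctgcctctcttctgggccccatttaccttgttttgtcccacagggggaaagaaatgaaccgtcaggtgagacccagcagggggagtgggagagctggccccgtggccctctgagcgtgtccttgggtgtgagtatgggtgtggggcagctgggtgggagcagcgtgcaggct
Windows from 250 bases before to 50 after the start were searched on both strands for these letters and for those of a steroid receptor site, ACANNNTGT (palindrome core) and TGTTCT (half-site). RefSeq gave such a window for 5 of the 7 genes, all but Hbegf and Erbb3. The Areg window held the cAMP response element, its first base 61 before the start, and the TATA box, first base 31 before it. The windows of Btc, Tgfa, Egfr and Erbb2 held none of the 4. Over 32851 windows of the same length, 1.79% held TGACGTCA, 13.6% TATAAA, 6.85% ACANNNTGT and 19.0% TGTTCT. A match of letters describes the sequence and is no evidence of binding.

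Btc, betacellulin, was the least abundant of the 7 and fell in ePRAoe. It had 0.608, 1.06 and 0.423 FPKM in ePRBoe replicates 1, 2 and 3, and 0.820, 0.264 and 0.819 in ePRAoe, against 3.07, 2.70 and 2.51 FPKM in Wnt7acre. All 6 overexpressing libraries were below all 3 controls. The deposited values of Btc were whole multiples of 0.02643 FPKM in every library, within 0.041 of 1 fragment. If that step is 1 fragment, they correspond to 23, 40 and 16 fragments in ePRBoe and 31, 10 and 31 in ePRAoe, against 116, 102 and 95 in Wnt7acre. In ePRAoe the change was -1.22 on the log2(FPKM + 1) scale (SE 0.21, limma adjusted p = 0.00996), with -1.47, -1.02 and -1.16 within runs 1, 2 and 3. That scale understates the change of a gene this low. The call was lost without Wnt7acre replicate 3 (limma adjusted p = 0.0647) or ePRAoe replicate 2 (0.0621). The difference of ePRBoe from Wnt7acre was -0.94 (SE 0.26, limma adjusted p = 0.0658). It passed under 5 of 11 other settings, among them one with no term for the run (-1.16, adjusted p = 0.00961).

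Tgfa, transforming growth factor alpha, was the main ligand by level in 2 of the 3 Wnt7acre libraries. It had 14.6, 13.4 and 9.95 FPKM in ePRBoe replicates 1, 2 and 3, and 11.5, 6.002 and 12.4 in ePRAoe, against 18.4, 20.0 and 22.1 FPKM in Wnt7acre. The controls lay above all 6 other libraries, and ePRAoe replicate 2, which had the most Areg, had the least Tgfa. In ePRAoe, Tgfa fell by 1.002 on the log2 scale (SE 0.24, limma adjusted p = 0.0320), with -1.72, -0.65 and -0.63 within runs 1, 2 and 3. The call was lost when any of 5 libraries was left out (Wnt7acre replicates 2 and 3, ePRAoe replicates 2 and 3, and ePRBoe replicate 2, with adjusted p between 0.0566 and 0.124). In ePRBoe the difference was -0.42 (SE 0.30, limma adjusted p = 0.436), and it was 0.31 without Wnt7acre replicate 3, the only control in the run of the ePRBoe libraries. Tgfa lies on chromosome 6 at 86195223 to 86275719 on the forward strand, and 118 of its exonic bases overlap a gene on the other strand, Gm43917. Whether the counting used strand is not given in the sources used here.

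Hbegf, whose product is also known as a blastocyst attachment factor in mouse, spread most widely between the ePRAoe libraries. It had 7.23, 6.53 and 4.83 FPKM in ePRBoe replicates 1, 2 and 3, and 2.95, 26.0 and 11.7 in ePRAoe, against 3.27, 9.60 and 6.66 FPKM in Wnt7acre. ePRAoe replicate 2 was the highest and ePRAoe replicate 1 the lowest of all 9 libraries, so the groups overlapped in each comparison. Inferred in the same way as for Btc, these values correspond to between 92 and 813 fragments. Against Wnt7acre the difference was 0.66 in ePRAoe (SE 0.35, limma adjusted p = 0.239) and -0.69 in ePRBoe (SE 0.42, limma adjusted p = 0.359). The ePRBoe value depends on the term for the run, since all ePRBoe libraries were in run 1. Mean levels were alike, 6.20 FPKM in ePRBoe and 6.51 in Wnt7acre. With no run term the ePRBoe difference was 0.021 (limma adjusted p = 0.986). The difference of ePRBoe from ePRAoe was -1.34 (SE 0.42, 95% interval -2.33 to -0.36), with an unadjusted limma p of 0.0141 and an adjusted p of 0.171. Without ePRAoe replicate 2 it was -0.18 (adjusted p = 0.954), and over all fits with a library left out it lay between -1.92 and -0.18. The ePRBoe difference from Wnt7acre lay between -1.85 (without Wnt7acre replicate 3) and -0.10 (without ePRAoe replicate 2) in those fits, and the ePRAoe difference between 0.07 and 1.04. Hbegf lies on chromosome 18 at 36504927 to 36515805 on the reverse strand.

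Taken as levels per length, the 4 ligands summed to 85.8, 83.8 and 174 FPKM in ePRBoe replicates 1, 2 and 3, and to 64.4, 228.6 and 156 FPKM in ePRAoe, against 55.5, 40.6 and 36.0 FPKM in Wnt7acre. Areg made up 73.8%, 75.0% and 91.3% of that sum in ePRBoe and 76.3%, 85.9% and 84.1% in ePRAoe, against 55.5%, 20.5% and 13.2% in Wnt7acre. The share of Tgfa was 17.0%, 15.95% and 5.72% in ePRBoe and 17.9%, 2.63% and 7.92% in ePRAoe, against 33.1%, 49.3% and 61.4% in Wnt7acre. Thus Areg was the most abundant of the 4 ligands in every overexpressing library and in Wnt7acre replicate 1, and Tgfa in the other 2 Wnt7acre libraries. These are shares of messenger RNA, and of the 4 ligands the fragments behind the values were inferred only for Btc and Hbegf.

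**Figure D2:**
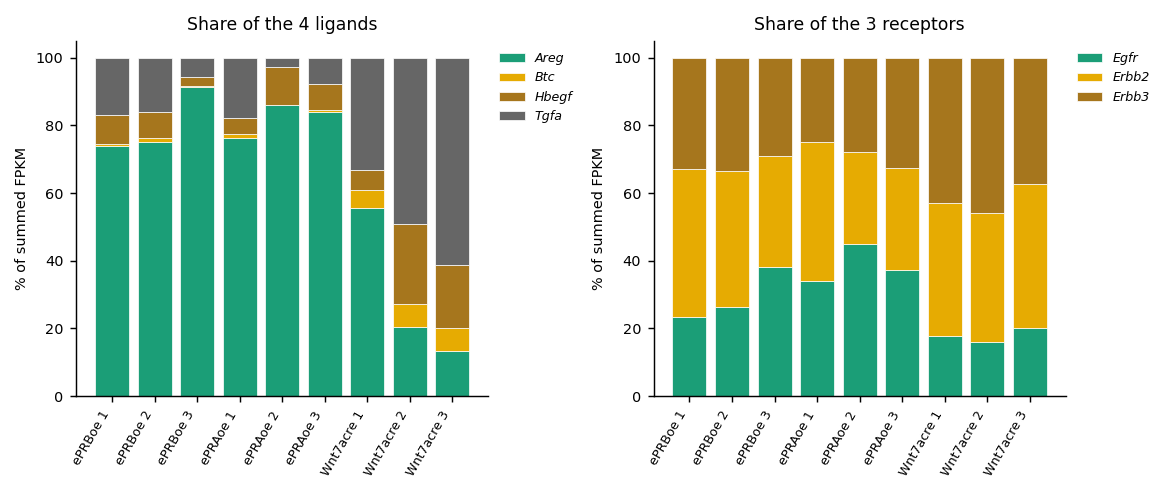
Share of each ligand in the summed FPKM of the 4 ligands, and of each receptor in that of the 3 receptors, for the 9 libraries in the order ePRBoe, ePRAoe, Wnt7acre. Areg takes 73.8% or more of the ligand sum in every overexpressing library and 55.5% or less in Wnt7acre, and Egfr takes 23.3% or more of the receptor sum in the overexpressing libraries and 20.2% or less in Wnt7acre.

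Among the receptors, Erbb3 was the one that fell past the threshold in ePRAoe, and it passed under all 12 other settings and with each library left out. It had 26.3, 23.1 and 24.6 FPKM in ePRBoe replicates 1, 2 and 3, and 21.4, 20.2 and 25.2 in ePRAoe, against 40.2, 57.2 and 34.9 FPKM in Wnt7acre. The controls were above all 6 other libraries. The change in ePRAoe was -0.93 on the log2 scale (SE 0.13, limma adjusted p = 0.00481), with -0.76, -1.15 and -0.88 within runs 1, 2 and 3. Over the 9 fits with a library left out, its adjusted p ranged between 0.00726 and 0.0287. In ePRBoe the difference was -0.57 (SE 0.16, limma adjusted p = 0.0648), the smallest adjusted p of the 7 in that comparison. It passed under 4 of 12 other settings, with adjusted p = 0.0216 when the run was left out of the model. Erbb3 lies on chromosome 10 at 128567523 to 128589652 on the reverse strand.

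Erbb2, the receptor with no known ligand, was near the level of Erbb3 in Wnt7acre. It had 35.1, 27.5 and 27.7 FPKM in ePRBoe replicates 1, 2 and 3, and 35.5, 20.0 and 23.3 in ePRAoe, against 36.8, 47.6 and 39.4 FPKM in Wnt7acre. The groups did not overlap, by a narrow margin, since the highest library of each overexpressing group reached over 35 FPKM and the lowest control 36.8. The difference in ePRAoe was -0.67 (SE 0.21, limma adjusted p = 0.0666), and within run 3 it was only -0.05, against -0.95 and -0.997 within runs 1 and 2. Without the run 3 library of either group, Erbb2 passed the threshold. In ePRBoe the difference was -0.25 (SE 0.25, limma adjusted p = 0.592). Erbb2 lies on chromosome 11 at 98412470 to 98437716 on the forward strand, and shares 9 exonic bases with Mien1 on the other strand.

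Egfr, the receptor that all 4 ligands bind, had higher values in ePRAoe than in Wnt7acre, where the other 2 receptors had lower ones. It had 18.7, 18.0 and 32.1 FPKM in ePRBoe replicates 1, 2 and 3, and 29.1, 32.6 and 28.8 in ePRAoe, against 16.7, 20.0 and 18.8 FPKM in Wnt7acre. The 3 ePRAoe libraries were all above the controls, while in ePRBoe only replicate 3 was. The difference in ePRAoe was 0.68 (SE 0.22, 95% interval 0.16 to 1.19, limma adjusted p = 0.0773), with 0.76, 0.50 and 0.77 within runs 1, 2 and 3, and it passed without ePRBoe replicate 3 (adjusted p = 0.0246). In ePRBoe it was 0.18 (SE 0.27, limma adjusted p = 0.728), and -0.08 without replicate 3. Egfr lies on chromosome 11 at 16752203 to 16918158 on the forward strand.

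The ratio of Egfr to Erbb3, both in FPKM, was 0.710, 0.781 and 1.302 in ePRBoe replicates 1, 2 and 3, and 1.36, 1.61 and 1.14 in ePRAoe, against 0.416, 0.350 and 0.540 in Wnt7acre. Each overexpressing library was above each control, and Erbb3 exceeded Egfr in all 3 Wnt7acre libraries and Egfr exceeded Erbb3 in all 3 ePRAoe libraries. This ratio sets a receptor with higher values in ePRAoe over one with lower values in the same libraries. Its separation is thus no result beyond those of the 2 genes. In ePRBoe, Egfr itself overlapped with Wnt7acre, and Erbb3 did not. The 3 receptors together summed to 80.1, 68.6 and 84.4 FPKM in ePRBoe and 86.0, 72.8 and 77.3 FPKM in ePRAoe, against 93.8, 124.8 and 93.2 FPKM in Wnt7acre.

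**Figure D3:**
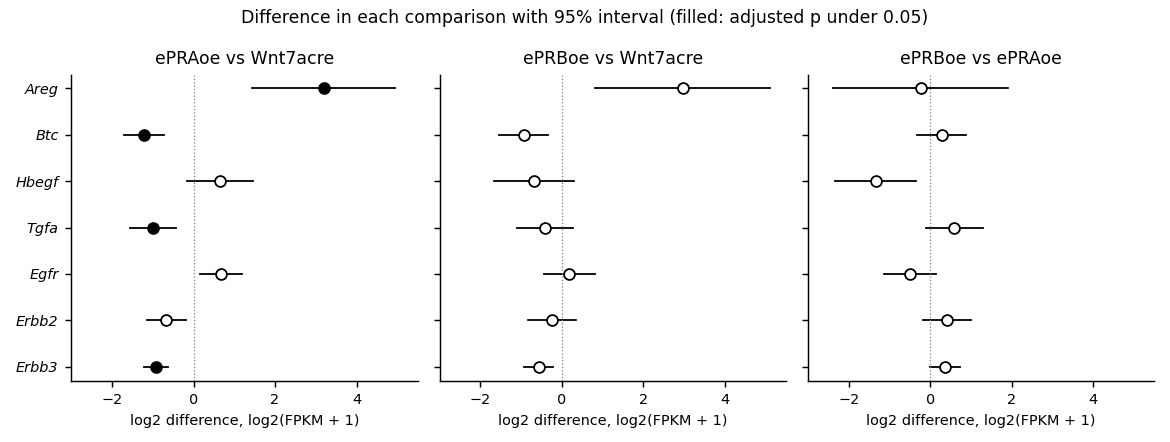
Difference of each of the 7 genes on the log2(FPKM + 1) scale with its unadjusted 95% interval, for each of the 3 comparisons, filled where the limma adjusted p was under 0.05. The 4 filled points are Areg (3.19), Btc (-1.22), Tgfa (-1.002) and Erbb3 (-0.93) in ePRAoe against Wnt7acre.

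**Figure D4:**
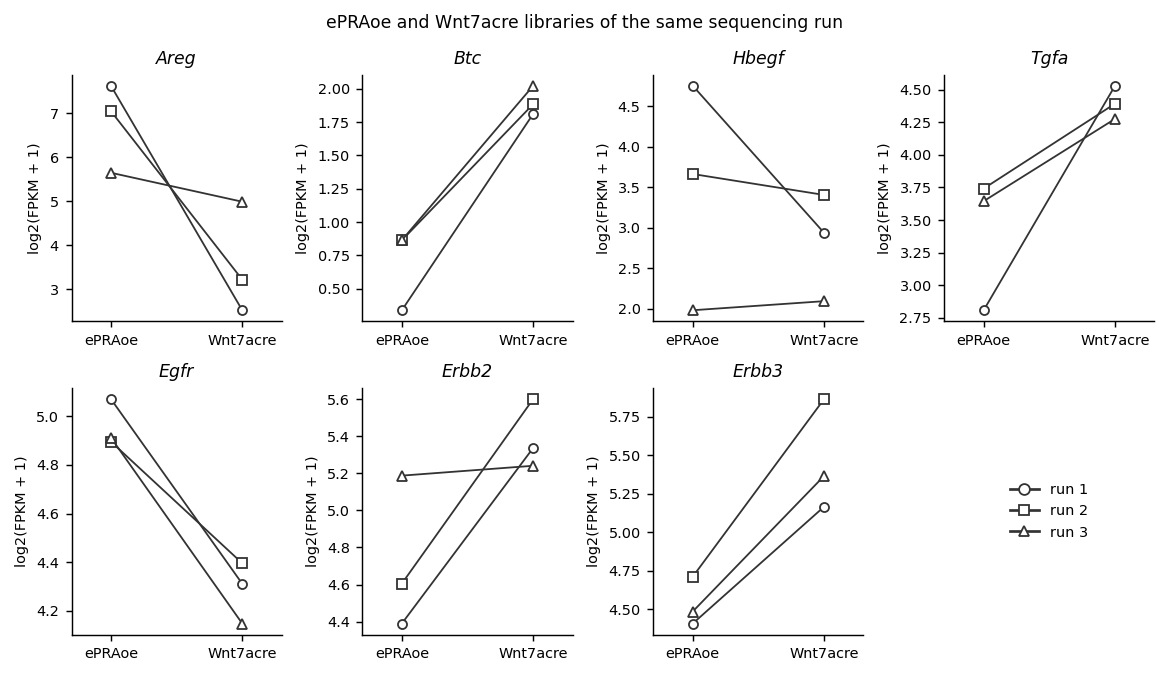
ePRAoe and Wnt7acre libraries of the same sequencing run joined by a line, on the log2(FPKM + 1) scale, for each of the 7 genes. Areg is higher in ePRAoe in every run, by 5.10, 3.83 and 0.66, and Btc, Tgfa, Erbb2 and Erbb3 are lower in every run, with the smallest difference, -0.05, for Erbb2 in run 3.

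By level, the 7 genes fell into different orders in the 3 genotypes. In Wnt7acre, Erbb3 (44.1 ± 11.7 FPKM) and Erbb2 (41.3 ± 5.60) stood highest and did not differ beyond their spread, and Tgfa (20.2 ± 1.87) and Egfr (18.5 ± 1.68) followed, again within their spread. Areg (14.6 ± 14.1) overlapped with both Egfr and Hbegf (6.51 ± 3.17), and Btc (2.76 ± 0.282) was lowest. In ePRAoe, Areg (126 ± 73.7) stood above Egfr (30.2 ± 2.13), Erbb2 (26.2 ± 8.15) and Erbb3 (22.3 ± 2.60), with Hbegf (13.6 ± 11.7), Tgfa (9.96 ± 3.46) and Btc (0.634 ± 0.321) below. There each neighbour in the order from Egfr down to Tgfa overlapped with the next, while Areg lay above and Btc below all others in each library. In ePRBoe, Areg (95.01 ± 55.2) was followed by Erbb2 (30.1 ± 4.34), Erbb3 (24.7 ± 1.62) and Egfr (22.9 ± 7.93), then Tgfa (12.6 ± 2.42), Hbegf (6.20 ± 1.23) and Btc (0.696 ± 0.326), and only Erbb3 and Egfr overlapped among these neighbours.

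Other genes of the pathway were read from 5 lists of 78 genes, of which 74 were in the table and 70 were tested. In ePRAoe against Wnt7acre, 20 of the 70 passed, 5 higher and 15 lower, which is 28.6% beside 16.2% of all genes, and the median difference was -0.17 beside -0.03 over all genes. In ePRBoe, 4 of 70 passed, 3 higher and 1 lower, or 5.71% beside 8.89%, with a median of -0.03 beside 0.10. Between ePRBoe and ePRAoe 0 of 70 passed with limma, beside 0.324% of all genes, and 17 had an unadjusted p under 0.05, or 24.3% beside 18.7%. With the libraries scaled to the epithelial markers, 9 of the 70 passed in ePRAoe, or 12.9% beside 13.0% of all genes, so the higher share was not seen under that scaling. In ePRBoe 1 of the 70 passed under it, or 1.43% beside 7.23%.

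Of the other ligands and the remaining receptor, 8 genes were listed, 5 were in the table and 3 were tested, of which 1 passed in ePRAoe and 0 in ePRBoe (0 with an unadjusted p under 0.05 either). Of all genes, 16.2% passed in ePRAoe and 8.89% in ePRBoe, where 25.8% had an unadjusted p under 0.05. Nrg1, neuregulin 1, a ligand of Erbb3, was low throughout and rose in ePRAoe. It had 2.89, 1.05 and 1.05 FPKM in ePRBoe replicates 1, 2 and 3, and 3.73, 2.13 and 2.31 in ePRAoe, against 0.253, 0.181 and 1.12 FPKM in Wnt7acre. The difference in ePRAoe was 1.32 (limma adjusted p = 0.0392), and the call was lost in 8 of the 9 fits with a library left out, with adjusted p of up to 0.159. Ereg, epiregulin, the neighbour of Areg on chromosome 5, had 0.992, 3.00 and 4.98 FPKM in ePRBoe and 0.846, 18.1 and 20.6 in ePRAoe, against 1.05, 0.165 and 0.257 in Wnt7acre. As with Areg, the run 3 libraries stood apart. ePRAoe replicate 1 was at the level of Wnt7acre replicate 1, and the within-run differences were 3.92, 4.22 and -0.15. The difference of 2.66 did not pass (limma adjusted p = 0.0631). It was 4.07 without either run 3 library (0.00309 without that of Wnt7acre), and passed with libraries scaled to the epithelial markers (2.84, 0.0230). ePRBoe differed from ePRAoe in Ereg by -1.77 (limma adjusted p = 0.370), or by -2.47 without either run 3 library (0.0485 without that of ePRAoe). Nrg4, neuregulin 4, a ligand of ERBB4, averaged 15.8 ± 2.60 FPKM in ePRBoe and 18.1 ± 11.1 in ePRAoe, against 16.05 ± 5.61 in Wnt7acre (limma adjusted p = 0.522 and 0.851). Egf itself was too low to test, with 9, 10 and 3 inferred fragments in ePRBoe and 11, 3 and 5 in ePRAoe, against 3, 0 and 1 in Wnt7acre.

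The list of ligand shedding held 10 genes, all tested, of which 1 rose and 4 fell in ePRAoe, and 2 rose and 1 fell in ePRBoe. That is 50% beside 16.2% of all genes in ePRAoe, and 30% beside 8.89% in ePRBoe. With libraries scaled to the epithelial markers, Adam15 and Rhbdf1 were not called in ePRAoe (limma adjusted p = 0.323 and 0.218). Under the same scaling, Adam19 and Adam8 were not called in ePRBoe (0.0507 and 0.0754). Adam12 in both groups and Adam8 in ePRAoe stayed called under it. Adam17, the main sheddase of amphiregulin and transforming growth factor alpha, and Adam10, that of betacellulin, did not pass in either. Adam17 had 15.8 ± 1.06 FPKM in ePRBoe and 21.4 ± 6.43 in ePRAoe, against 24.4 ± 0.381 in Wnt7acre (limma adjusted p = 0.164 and 0.401), and Adam10 22.3 ± 0.727 and 20.2 ± 3.63, against 23.4 ± 3.15. Timp3, an inhibitor of Adam17, had 107.6 ± 55.6 FPKM in ePRBoe and 39.3 ± 14.2 in ePRAoe, against 27.7 ± 23.7 in Wnt7acre (limma adjusted p = 0.137 and 0.283, and 0.500 between ePRBoe and ePRAoe). Adam12, a metalloprotease known to shed heparin-binding EGF, rose in both, to 7.20 ± 2.48 FPKM in ePRBoe (log2 difference 2.55, limma adjusted p = 0.0120) and 4.75 ± 2.56 in ePRAoe (1.82, 0.0107), against 0.535 ± 0.191 in Wnt7acre. Adam19 rose in ePRBoe, to 1.77 ± 0.219 against 0.482 ± 0.238 FPKM in Wnt7acre (1.28, limma adjusted p = 0.0214). The Adam12 call was lost without ePRAoe replicate 3 in ePRAoe (adjusted p = 0.0515), and without Wnt7acre replicate 3 or ePRAoe replicate 2 in ePRBoe (0.0542 and 0.0533), and the Adam19 call held in 4 of the 9 fits with a library left out. The summed stromal markers were likewise higher in both groups, 464 to 620 FPKM in ePRBoe and 267 to 444 in ePRAoe against 108 to 143 in Wnt7acre, and their part in these values was not tested. Adam8 fell, to 0.943 ± 0.491 FPKM in ePRBoe (-1.31, limma adjusted p = 0.0313) and 0.439 ± 0.247 in ePRAoe (-1.59, 0.00542), against 3.36 ± 0.895 in Wnt7acre. With each library left out in turn, the ePRAoe call of Adam8 held in 9 of 9 fits and the ePRBoe call in 3 of 9. Adam8 is also known as a gene of leukocytes, whose markers summed to 416 to 499 FPKM in ePRBoe and 138 to 178 in ePRAoe, against 206 to 423 in Wnt7acre. Rhbdf1, an inactive rhomboid that helps carry Adam17 to the surface, fell in ePRAoe to 3.11 ± 0.911 against 6.01 ± 2.68 FPKM in Wnt7acre (-0.72, limma adjusted p = 0.0389), a call that held in 2 of the 9 fits with a library left out. Rhbdf2, of the same list, also fell in ePRAoe, to 7.47 ± 2.74 against 17.4 ± 4.97 FPKM in Wnt7acre (-1.13, limma adjusted p = 0.0475). Its call was not followed over the fits with a library left out.

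Of 17 inhibitors of the receptors and their signal, all tested, 1 rose and 4 fell in ePRAoe, and 1 rose in ePRBoe. That is 29.4% beside 16.2% of all genes in ePRAoe, and 5.88% beside 8.89% in ePRBoe. Those that fell in ePRAoe were the ubiquitin ligases Cblc and Cblb, which mark ERBB receptors for degradation, and the leucine-rich membrane proteins Lrig1 and Lrig3, of which Lrig1 is known to lower ERBB receptor levels. Cblc had 18.6 ± 2.08 FPKM in ePRBoe and 17.8 ± 4.01 in ePRAoe, against 37.5 ± 12.7 in Wnt7acre (ePRAoe difference -1.01, limma adjusted p = 0.0235, and ePRBoe difference -0.73, 0.146). Lrig1 had 11.8 ± 1.86 FPKM in ePRAoe against 25.2 ± 10.2 in Wnt7acre (-0.98, limma adjusted p = 0.0392), Lrig3 had 1.63 ± 0.548 against 4.04 ± 1.33 (-0.93, 0.0291), and Cblb had 4.53 ± 2.30 against 9.28 ± 3.33 (-0.92, 0.0324). Wnt7acre replicate 2 had the highest level of all 4. Leaving out any of Wnt7acre replicates 2 and 3 and ePRAoe replicates 2 and 3 lost all 4 calls, with adjusted p between 0.0916 and 0.143, and so did leaving out any 1 of the ePRBoe libraries for Lrig1, ePRBoe replicate 2 for Lrig3 (0.0546) and ePRBoe replicate 1 for Cblb (0.0565). Ptpn1, a tyrosine phosphatase that acts on Egfr, was the 1 that rose in each, to 18.9 ± 0.972 FPKM in ePRBoe (0.62, limma adjusted p = 0.0483) and 17.2 ± 2.17 in ePRAoe (0.47, 0.0419), against 12.2 ± 3.06 in Wnt7acre. Each call held in 2 of the 9 fits with a library left out. With libraries scaled to the epithelial markers, Cblc, Lrig1, Lrig3 and Cblb were not called in ePRAoe. Their limma adjusted p was then 0.0508, 0.0646, 0.132 and 0.132 in that order. Nor was Ptpn1 called under this scaling (limma adjusted p = 0.0647 in ePRAoe and 0.0997 in ePRBoe). Errfi1, the feedback inhibitor of Egfr, had 54.4 ± 8.06 FPKM in ePRBoe and 73.1 ± 23.8 in ePRAoe, against 66.8 ± 8.44 in Wnt7acre (limma adjusted p = 0.350 and 0.830).

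Of 27 adaptors and kinases, all tested, 5 fell and 0 rose in ePRAoe, which is 18.5% beside 16.2% of all genes. In ePRBoe 0 passed with limma and 4 had an unadjusted p under 0.05, or 14.8% beside 25.8% of all genes. Gab1, a docking protein that links Egfr to PI3K, fell to 16.9 ± 2.86 FPKM in ePRAoe against 29.5 ± 4.79 in Wnt7acre (-0.77, limma adjusted p = 0.00617). It passed with each library left out, but not with libraries scaled to the epithelial markers (-0.59, adjusted p = 0.0653). Eps8, a substrate of Egfr, had 7.35 ± 2.60 FPKM in ePRAoe against 21.1 ± 5.56 in Wnt7acre (-1.43, limma adjusted p = 0.0137). Map2k1, the kinase above ERK, had 28.3 ± 1.48 FPKM in ePRAoe against 44.2 ± 2.01 in Wnt7acre (-0.63, limma adjusted p = 0.0351), and Pik3ca, a catalytic subunit of PI3K, 7.36 ± 1.25 against 10.9 ± 0.768 (-0.52, 0.0467). Wnt7acre replicates 2 and 3 and ePRAoe replicates 2 and 3, each left out alone, lost the call of Eps8 (adjusted p up to 0.0747). The call of Map2k1 was lost in 8 of the 9 fits with a library left out, and that of Pik3ca in all 9. The adaptors with the highest levels were Grb7, which binds Erbb2, and Stat3, a transcription factor that ERBB receptors can activate. Grb7 had 83.2 ± 12.7 FPKM in ePRBoe and 74.2 ± 5.06 in ePRAoe, against 121 ± 30.3 in Wnt7acre, and it passed in ePRAoe (-0.68, limma adjusted p = 0.0484), a call that held in 2 of the 9 fits with a library left out, and not in ePRBoe (-0.46, 0.258). Stat3 had 78.6 ± 4.94 FPKM in ePRBoe and 97.7 ± 13.4 in ePRAoe, against 113 ± 15.4 in Wnt7acre (limma adjusted p = 0.253 and 0.286).

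Of 16 genes known to be induced by ERK, 15 were in the table and 13 were tested, and in ePRAoe 2 rose and 2 fell (30.8% beside 16.2% of all genes). The immediate early transcription factors Fos and Egr1 rose. Fos had 9.30, 14.3 and 15.8 FPKM in ePRBoe replicates 1, 2 and 3, and 20.4, 124.8 and 16.5 in ePRAoe, against 5.55, 3.279 and 4.11 in Wnt7acre (ePRAoe difference 2.79, limma adjusted p = 0.0119). ePRAoe replicate 2, the library with the most Areg and Hbegf, was far above the others, and the call held without it. Egr1 had 24.6 ± 18.1 FPKM in ePRAoe against 7.14 ± 1.54 in Wnt7acre (1.45, limma adjusted p = 0.0169), a call lost without ePRAoe replicate 2 (0.0696) or Wnt7acre replicate 3 (0.0668). Myc and Epha2 fell. Myc, a growth transcription factor, had 37.3, 25.6 and 35.3 FPKM in ePRBoe and 20.7, 15.1 and 34.3 in ePRAoe, against 44.5, 167.1 and 94.1 in Wnt7acre (ePRAoe difference -1.96, limma adjusted p = 0.00533; ePRBoe difference -1.21, 0.0721), and the ePRAoe call held with each library left out. Epha2, an ephrin receptor, had 3.50 ± 1.73 FPKM in ePRAoe against 8.24 ± 3.98 in Wnt7acre (-1.04, limma adjusted p = 0.0331), and this call did not hold when Wnt7acre replicate 1 or 2, ePRAoe replicate 1 or 3 or ePRBoe replicate 2 was left out (adjusted p up to 0.156). Ier3, an early response gene and with Myc the highest of the list by level, had 44.7 ± 7.49 FPKM in ePRBoe and 61.03 ± 30.5 in ePRAoe, against 66.4 ± 10.3 in Wnt7acre (limma adjusted p = 0.0911 and 0.499). In ePRBoe, 0 of the 13 passed with limma, beside 8.89% of all genes. An unadjusted p under 0.05 was found there for 3 of the 13, or 23.1% beside 25.8% of all genes.

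**Figure D5:**
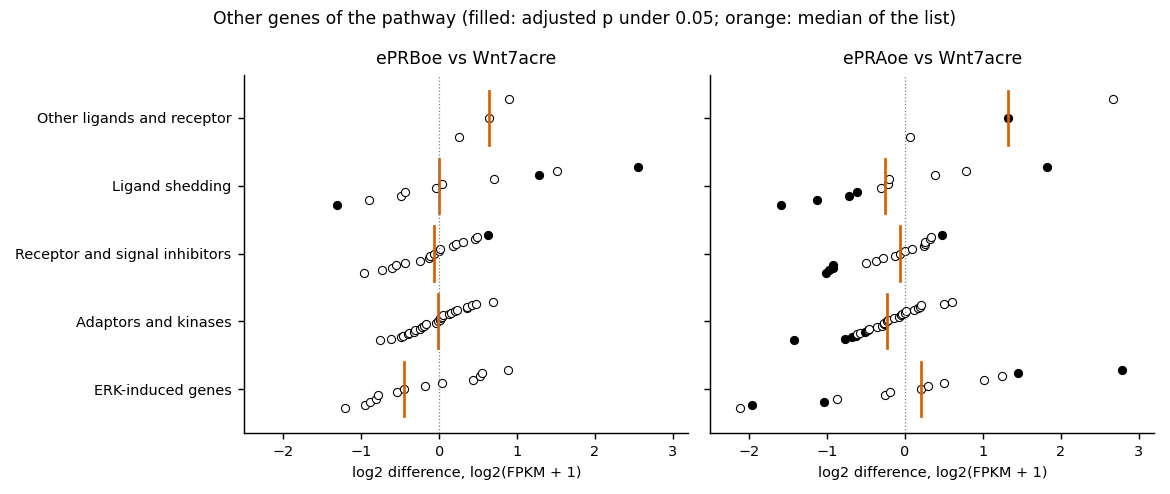
Difference of each tested gene of the 5 pathway lists on the log2(FPKM + 1) scale, by list, in ePRBoe and in ePRAoe against Wnt7acre, filled where the limma adjusted p was under 0.05, with the median of each list in orange. In ePRAoe against Wnt7acre the adaptors and kinases that passed all lie below 0, and the lists of shedding, inhibitors and ERK-induced genes hold filled points on both sides.

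For each of the 7 genes, the 3 genes with the closest pattern over the 9 libraries were taken from 8252 genes whose mean was 5 FPKM or more, leaving out the 7 themselves and symbols of the Gm or Rik kind, by Pearson's r on the log2 scale. These are descriptions of libraries that share genotype and run, with no test. Areg was closest to Pik3cg (r = 0.98), Tia1 (0.97) and C1qtnf9 (0.97), and Btc to Cbx7 (0.99), Cldn8 (0.96) and Cds2 (0.96). For Tgfa they were Ly6a, Gng12 and C3 (0.97 each), and for Hbegf Them5 (0.94), B4galt3 (0.94) and Sik1 (0.92). Among the receptors, Erbb2 was closest to Fam57a (0.99), Smagp (0.99) and Slc27a4 (0.98), and Erbb3 to Rexo2 (0.99), Frmd8 (0.98) and Cd164 (0.98). Egfr had the loosest neighbours of the 7, Tes (0.93), Camk1d (0.91) and Mbnl3 (0.90). By rank (Spearman's rho), these 3 were at 0.65, 0.72 and 0.73, and the neighbours of the other genes at 0.85 or more.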

How the data were processed

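RNA was measured in 9 libraries, 3 of each genotype. Per the submitters' processing notes, STAR 2.5.2b, featureCounts 1.5.0-p1 (Subread), edgeR 3.28.0, limma 3.42.2 and the mm10 build were used. The authors deposited 1 table of FPKM per gene for 15158 symbols, per the file headers. Of these rows, 4239 were out of alphabetical order, 6 of the 7 genes among them. Symbols were used as given. No source used here gives the annotation, strand setting or gene lengths. For Btc, Hbegf, Ereg and Egf the FPKM were whole multiples of 1 step, within 0.1 of a fragment, the same in every library, and gave the fragments quoted. No such step was found for Areg, Tgfa, Egfr, Erbb2 and Erbb3, so depth is known for few genes and no count test was run.

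From the deposited FPKM, log2(FPKM + 1) was computed and fitted with limma 3.58.1 (R 4.3.3) with an expression trend, terms for genotype and run, and all 9 libraries. Genes were kept if 3 or more libraries reached 1 FPKM, which left 12347, and p-values were adjusted by Benjamini-Hochberg over all of them, with 0.05 as the threshold. The script was tested on simulated data. No 2 columns were identical, and replicates correlated at 0.929 to 0.974. Positions come from GENCODE M21. Of each pathway list and comparison, up to 4 genes past the threshold with the largest moderated t were named, and where fewer than 2 passed, the 2 with the highest mean. Adam17, Rhbdf2, Egf, the ePRAoe values of Ptpn1 and Grb7, and values of named genes in other comparisons are given outside that rule and were chosen after their values were seen. The genes and lists were chosen with earlier results of these data known. Alternatives were other pseudocounts (0.1 and 5), filters, scalings, run terms and variance models, leaving out each library, and scaling to epithelial markers, the last chosen after seeing the data.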

Additional observations from a re-analysis of the deposited data

Results flagged for a closer look

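Adam15, a metalloprotease of the shedding list, differed by 1.31 on the log2(FPKM + 1) scale between ePRBoe and ePRAoe (limma adjusted p = 0.0580). It had 7.81, 9.96 and 8.22 FPKM in ePRBoe replicates 1, 2 and 3 and 4.58, 2.68 and 4.85 FPKM in ePRAoe, against 6.04, 8.80 and 5.21 FPKM in Wnt7acre. It was picked out because every ePRBoe library lay above, and every ePRAoe library below, the Wnt7acre mean on the log2 scale. Against Wnt7acre, the ePRAoe difference was -0.61 (limma adjusted p = 0.0439), a call that held in 2 of the 9 fits with a library left out, and the ePRBoe difference was 0.70 (limma adjusted p = 0.0741).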

How the results depend on the processing

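Over the 7 genes and 3 comparisons, 395 values under other settings kept their direction and their side of the threshold, 19 passed it, 16 no longer did and 8 turned sign, and the cause was not tested. In ePRAoe, 4 genes passed, and 1 to 5 with a library left out, 1 (Erbb3) without Wnt7acre replicate 3 or ePRAoe replicate 2. Tgfa was not called with TPM (adjusted p = 0.0553) or with only ePRAoe and Wnt7acre fitted (0.0680). Scaled to the epithelial markers, Btc (0.0563) and Tgfa (0.111) were not called and Egfr (0.0364) was. In ePRBoe, 0 passed, and 0 to 1 with a library left out. With no run term 3 passed (Areg, Btc and Erbb3), with quantile normalization 2, and with median-of-ratios factors, no expression trend, pseudocount 5, only 2 genotypes fitted or epithelial scaling 1 each. Between ePRBoe and ePRAoe, 0 passed with any library left out and 1 (Hbegf, -1.92, 0.0340) with only those genotypes fitted.

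Replicate numbers did not pair the libraries: same-numbered libraries correlated at -0.23 to 0.17 in their deviations from the genotype means, and others at -0.31 to 0.31. With the replicate block in place of the run, 3 of the 7 were called in ePRAoe (Tgfa not, adjusted p = 0.0542) and 2 in ePRBoe, 9 of the 70 pathway genes in ePRAoe, and 1113 and 4 of all genes in ePRAoe against Wnt7acre and in ePRBoe against ePRAoe.

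Of all genes, 1998 were called in ePRAoe against Wnt7acre, 747 to 2719 with a library left out and 1063 with only those genotypes fitted. In ePRBoe against Wnt7acre, 1098 were called, 232 to 1602 with a library left out, 653 at a mean of at least 5 FPKM and 1786 with no run term. The split of higher and lower calls there was 792 and 306, against 618 and 477 with median-of-ratios factors and 568 and 451 with quantile normalization, which shifted the median of all genes by -0.13 each. Between ePRBoe and ePRAoe, 40 were called, 0 to 546 with a library left out, 19 with no filter, 22 with median-of-ratios factors, 15 with quantile normalization, 7 with no run term and 453 with only those genotypes fitted. Of the 70 pathway genes, 20 were called in ePRAoe, 5 to 24 with a library left out, 12 with no run term, 7 with only those genotypes and 9 scaled to the epithelial markers. In ePRBoe 4 were called, 0 to 10 with a library left out, 1 at a mean of at least 5 FPKM, 9 with no run term and 1 scaled to the epithelial markers. Between ePRBoe and ePRAoe 0 were called, 0 to 4 with a library left out and 3 with only those genotypes.

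Differences that turned sign were all outside the threshold. Against ePRAoe, ePRBoe differed in Btc by -0.17 with quantile normalization, and in Nrg4 by -0.047 with no run term or the block. Against Wnt7acre, ePRBoe differed in Hbegf by 0.021 with no run term or the block. With a library left out, differences of ePRBoe from ePRAoe ranged over -1.18 to 1.67 (Areg), -0.13 to 0.95 (Tgfa), -0.39 to 0.25 (Pgr), -0.85 to 0.11 (Errfi1) and -0.58 to 1.39 (Timp3). Those of ePRBoe from Wnt7acre ranged over -0.78 to 0.31 (Tgfa), -0.080 to 0.32 (Egfr), -0.40 to 0.037 (Erbb2) and -0.36 to 1.60 (Ereg), and that of Nrg4 in ePRAoe over -0.13 to 0.20.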
